A study of Mus musculus with 9 samples.

Results

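The first hour after an ovulatory dose of hCG was examined in mouse granulosa cells by comparing the 3 libraries taken at 1 h with the 3 taken just before the injection, at 0 h. Granulosa cells line the ovarian follicle and nurse its oocyte. They came from Kunming mice, an outbred stock, at postnatal day 21. Every mouse had received 5 IU of PMSG, a gonadotropin that drives follicle growth, and the 0 h libraries were made 48 h later with no hCG given. The 1 h libraries followed 5 IU of hCG, which acts on the LH receptor and starts ovulation, and another 3 libraries were taken at 6 h. The 6 libraries at 0 h and 1 h, of 9 in the series, make up the comparison. Of 25059 gene identifiers, 14535 reached 1 FPKM or more in at least 3 of the 9 libraries and were tested. All 9 libraries were fitted together, so the 6 h libraries also share the estimate of the spread. FPKM counts sequenced fragments after scaling to transcript length and to library size. Whether the replicates were separate animals or pools is not stated. Each p-value therefore sets a difference against the spread between libraries, which may be technical. Time after hCG and time of day cannot be told apart, because no library without hCG at the later hours was analysed here.

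The LH receptor couples to the stimulatory G protein, raises cyclic AMP and activates protein kinase A, which phosphorylates transcription factors of the CREB family within minutes. Genes that need no new protein for their induction answer first, and many of them encode feedback regulators of the same signal: kinases, phosphodiesterases, small GTPases and receptor genes. The immediate-early transcription factors, the EGF-like ligands and the genes of steroid synthesis and cumulus expansion are the best known part of this answer and were left aside. What follows describes kinases, receptors, channels, transport genes, smaller groups of signalling and nuclear genes, and the genes that fell.

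At an adjusted p below 0.05 (limma, Benjamini-Hochberg over 14535 genes, used for every adjusted p in the text), 1407 genes were higher at 1 h, which is 9.68% of genes tested, and 869 were lower, which is 5.98%. Changes of 2-fold or more were one-sided: 379 genes rose by that much (2.61%) and 17 fell (0.117%). All 3 libraries at 1 h lay above all 3 at 0 h in 18.3% of genes tested and below them in 17.2%. Groups did not overlap in 1401 of the 1407 genes called higher and 866 of the 869 called lower. Non-overlap, where given below, therefore describes a gene and adds little to its call. With only the 6 libraries at 0 h and 1 h fitted, 13942 genes were tested, 1166 called higher and 602 lower. Log2 changes are differences of mean log2(FPKM + 1) with their SE, on which changes at low FPKM come out too small. The sum of FPKM was 491920 to 495500 at 0 h and 527034 to 570986 at 1 h, and scaling the libraries to a common sum moved the median change of genes from −0.00 to −0.14. With that scaling 1002 of 14553 genes tested were called higher and 2634 lower, and after quantile normalization 1142 and 1252 of 14535. The split of all genes thus turned as well, so a split that turns is not particular to a list. A change under that scaling is to be read against the shift of −0.14, and the scaled counts are given below where they turn the split of a list.

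Replicate 2 at 1 h stood apart from the other 1 h libraries in the direction of the 0 h libraries. Among the 379 genes that rose by 2-fold or more, it was the lowest of the 3 libraries at 1 h in 301, replicate 1 in 60 and replicate 3 in 18. Among the 869 genes called lower it was the highest of the 3 in 602. The median log2 change of the 379 genes was 1.25 in replicate 2, 1.59 in replicate 1 and 1.72 in replicate 3. Without replicate 2, 1601 genes were called higher and 1223 lower, and without replicate 3 the counts were 904 and 295. Lower calls numbered 336 without replicate 1 at 1 h, and 407, 425 and 320 without replicates 1, 2 and 3 at 0 h.

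**Figure D1:**
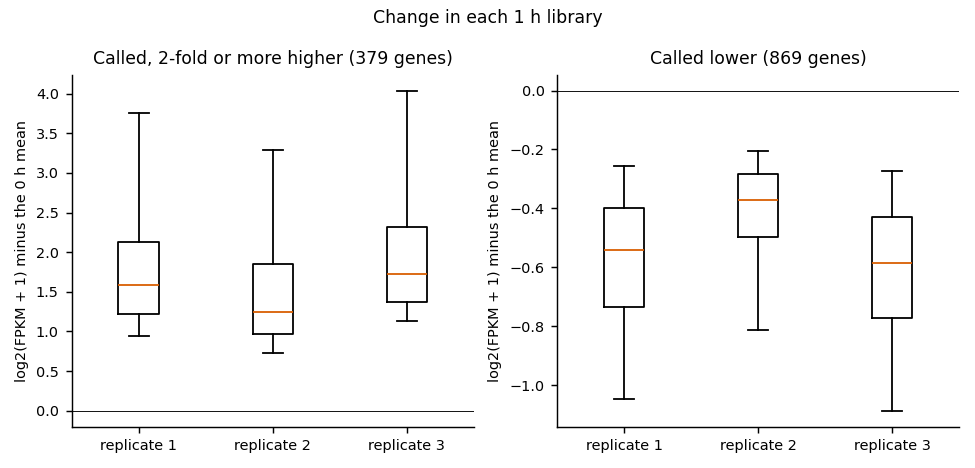
Difference of log2(FPKM + 1) in each 1 h library from the 0 h mean, for the 379 genes called 2-fold or more higher and the 869 called lower. Boxes give quartiles and median, whiskers the 5th and 95th percentiles, over genes; replicate 2 has the median closest to 0 in both sets (1.25 and −0.37).

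Granulosa cell markers were present and led the marker lists. Of 13, 4 were called higher and 1 lower (2 higher without replicate 2 at 0 h or replicate 1 or 3 at 1 h, and 0 lower without any library other than replicate 2 at 1 h), and their summed level was 13214 to 13994 FPKM at 0 h and 13129 to 18875 at 1 h. Summed levels of the other lists at 0 h and 1 h were 52.4 to 82.1 and 66.4 to 82.4 for 14 oocyte genes, 225 to 343 and 295 to 445 for 12 theca and stroma genes, and 133 to 202 and 89.7 to 204 for 5 erythroid genes. Endothelial genes (10) summed to 27.9 to 36.5 and 29.05 to 36.9, leukocyte genes (11) to 30.1 to 48.2 and 30.8 to 56.4, and surface epithelium genes (9) to 26.8 to 32.3 and 29.2 to 32.7. The ranges at 0 h and 1 h overlapped in every list, and 0 members of the 6 other lists were called (limma), while 3 had an unadjusted p below 0.05. None of these markers was at 0 in all 6 libraries; 4 leukocyte markers and 1 each of the oocyte, theca, endothelial and epithelial lists were below 1 FPKM in all 6. The part of other cells in the results was not tested. Fewer cells of a type and less RNA per cell cannot be told apart in such bulk samples.

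**Figure D2:**
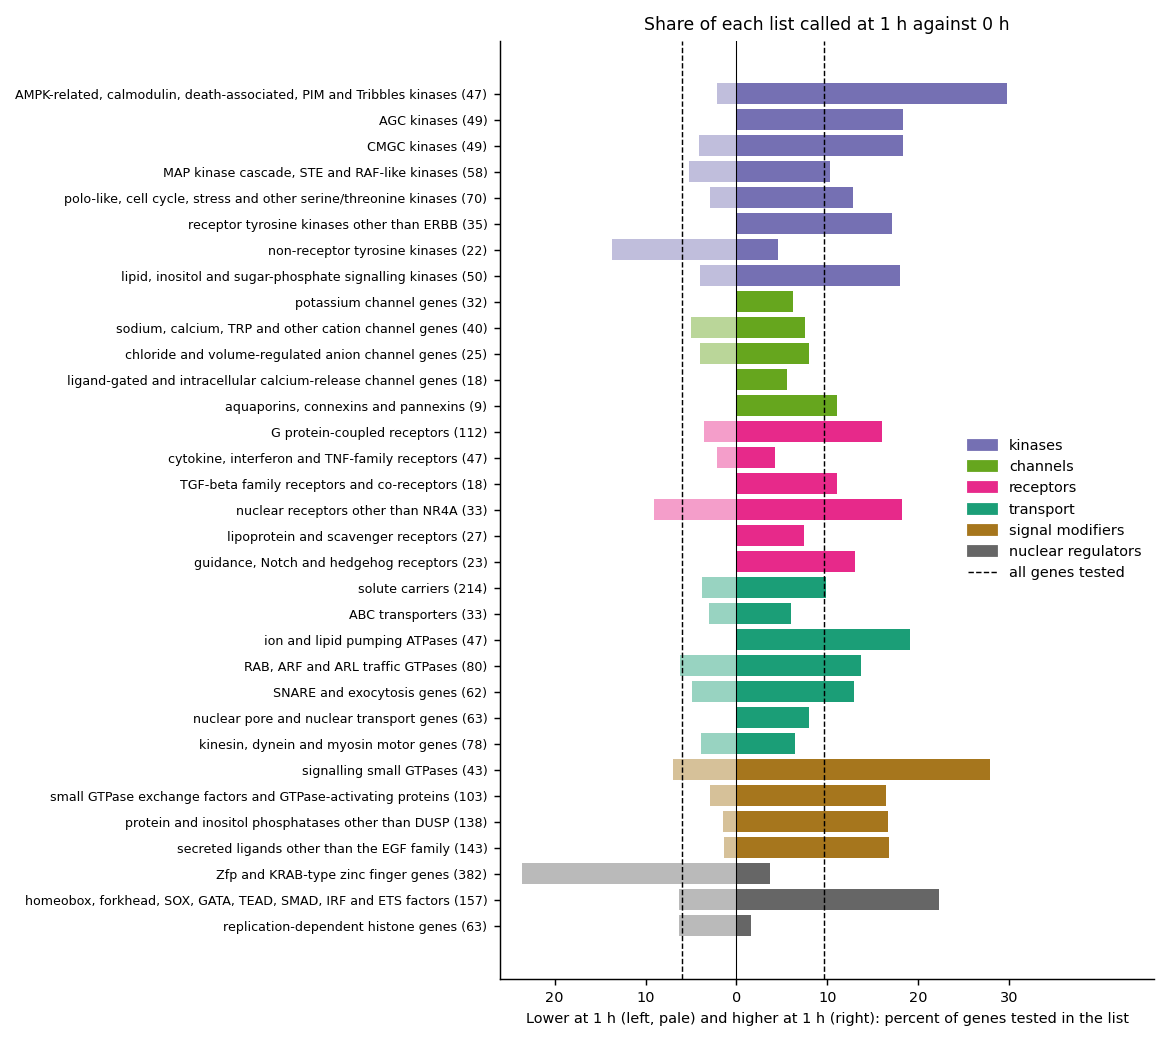
Percent of the genes tested in each list that were called higher at 1 h (right) or lower (left, pale), with the number tested in parentheses. Dashed lines mark all genes tested (9.68% higher and 5.98% lower); kinases of the AMPK-related and calmodulin group reach farthest right and zinc finger genes farthest left.

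Kinase genes included the largest rise among well-named genes outside the sets left aside, that of *Plk2*. Of 464 kinase genes in the table, 380 were tested, 63 were called higher (16.6%, against 9.68% of all genes) and 13 lower (3.42%, against 5.98%). With libraries scaled to a common sum 39 were higher and 50 lower, beside 1002 and 2634 of all 14553 genes tested. Quantile normalization gave 48 and 14. Without replicate 3 at 1 h 39 were called higher, and the count of lower calls was 2 to 6 without any 1 of the other libraries and 18 without replicate 2 at 1 h. Of 47 AMPK-related, calmodulin-dependent, PIM and Tribbles kinases tested, 14 were higher (29.8%, against 9.68% of all genes) and 1 was lower (2.13%, against 5.98%). Higher calls were 12 to 18 on leaving out 1 library, and a common sum gave 13 higher and 7 lower. This list pools several families and, like the others, was drawn up with earlier results of these data known. The 12 kinase genes of all lists that rose by 2-fold or more are named here, and no kinase fell by 2-fold.

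*Plk2* (ENSMUSG00000021701, chromosome 13, 110395046 to 110400844, plus strand, mm10) encodes polo-like kinase 2, first found as a serum-inducible kinase. Its level was 5.45, 5.15 and 6.05 FPKM at 0 h and 190.5, 121 and 198 at 1 h. The log2 change was 4.67 ± 0.18, adjusted p = 3.69e-07, and the lowest 1 h library stood far above the highest 0 h library. *Sik1* (ENSMUSG00000024042, chromosome 17, 31844250 to 31855804, minus strand) encodes a salt-inducible kinase that phosphorylates CRTC coactivators and thereby restrains CREB. It had 8.35, 13.4 and 8.33 FPKM at 0 h and 216, 122.5 and 213 at 1 h (4.05 ± 0.23, adjusted p = 3.49e-06), again with no overlap. The promoters of the genes named here were searched for TGACGTCA, the full palindromic site of CREB-family factors, on both strands, in windows from 250 bases before to 50 after each RefSeq start site (GRCm38.p6). Of 66 genes of the kinase, channel, receptor and transport lists that the naming rule took and that were called higher, 51 had a window in the table. The letters were found in *Plk2*, the traffic GTPase gene *Arl5b* and the anion channel gene *Lrrc8a*. Over all mouse promoter windows, of which a gene can have several, 588 of 32851 (1.79%) hold them. Under 80% of the named genes, and of the genes that rose by 2-fold or more (199 of 344), were in the table, so no share is given for either, and a match is a description of the letters only. The 250 bases before the start site of these 3 genes are shown so that the place of the site, in capitals, can be compared; its first base lies 62, 121 and 108 bases before the start in *Plk2*, *Arl5b* and *Lrrc8a*. The windows are chr13:110394794-110395043, chr2:15055070-15055319 and chr2:30237519-30237768, each on the plus strand.
Plk2: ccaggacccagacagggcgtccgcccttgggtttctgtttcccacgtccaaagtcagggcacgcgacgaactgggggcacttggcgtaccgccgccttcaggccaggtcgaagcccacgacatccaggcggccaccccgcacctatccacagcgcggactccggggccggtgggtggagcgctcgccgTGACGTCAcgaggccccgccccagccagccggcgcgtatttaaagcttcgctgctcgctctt
Arl5b: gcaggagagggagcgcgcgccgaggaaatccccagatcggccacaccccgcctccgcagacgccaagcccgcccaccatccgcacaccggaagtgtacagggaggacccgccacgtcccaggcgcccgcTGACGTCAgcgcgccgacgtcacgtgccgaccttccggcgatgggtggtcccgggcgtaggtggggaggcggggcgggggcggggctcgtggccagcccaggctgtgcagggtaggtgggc
Lrrc8a: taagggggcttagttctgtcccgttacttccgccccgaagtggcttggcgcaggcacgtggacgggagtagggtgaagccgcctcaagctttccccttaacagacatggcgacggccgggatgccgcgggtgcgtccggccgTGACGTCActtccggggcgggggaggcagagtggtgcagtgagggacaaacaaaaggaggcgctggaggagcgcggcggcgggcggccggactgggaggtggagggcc

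Relatives of these genes are given beside them, and differences between relatives were not tested. *Sik2*, with 9.74, 11.5 and 11.3 FPKM at 0 h and 20.5, 20.3 and 27.4 at 1 h, changed by 0.99 ± 0.12, adjusted p = 5.13e-04. *Sik3* had 45.1, 49.1 and 49.98 FPKM at 0 h and 52.4, 52.99 and 61.5 at 1 h and was not called (0.20 ± 0.08, adjusted p = 0.12). Of the other polo-like kinases, *Plk3* was low throughout, with 1.17, 0.886 and 1 FPKM at 0 h and 3.79, 2.59 and 3.93 at 1 h (1.12 ± 0.16, adjusted p = 0.0013); its most abundant row alone was not called. *Plk1* and *Plk4*, which act in mitosis and in centriole duplication, had changes of −0.26 ± 0.15, adjusted p = 0.27 and 0.15 ± 0.12, adjusted p = 0.44 and were not called, with overlapping groups. The 3 genes of the PIM family, short-lived kinases controlled mainly by their abundance, all rose. *Pim3* had 21.8, 22.1 and 25.4 FPKM at 0 h and 72.04, 57.4 and 82.1 at 1 h (1.56 ± 0.12, adjusted p = 2.86e-05). *Pim1* rose by 0.93 ± 0.13 (adjusted p = 0.0012) and *Pim2* by 0.49 ± 0.10 (adjusted p = 0.01).

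*Trib1* and *Trib2* of the Tribbles genes, whose products are pseudokinases that bring substrates to ubiquitin ligases, moved in opposite directions. *Trib1* had 2.85, 3.03 and 2.39 FPKM at 0 h and 6.22, 6.53 and 7.45 at 1 h and rose by 1.04 ± 0.13, adjusted p = 5.13e-04. *Trib2* (ENSMUSG00000020601, chromosome 12, 15791727 to 15816922, minus strand) had 252, 218 and 277 FPKM at 0 h and 149, 168 and 151 at 1 h and fell by 0.67 ± 0.11 (adjusted p = 0.0032), the lowest change among kinase genes called. Neither gene's groups overlapped, and both calls held under each alternative tried. *Trib2* was the more abundant of the pair on the FPKM scale at either time.

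Among receptor tyrosine kinases, *Epha4*, a receptor for ephrins that guides contacts between cells, had 3.95, 3.58 and 3.46 FPKM at 0 h and 32.4, 26.3 and 51.8 at 1 h and the largest rise (2.97 ± 0.20, adjusted p = 1.16e-05). Its ligand gene *Efnb2*, a secreted-ligand list member that encodes a membrane-bound ephrin, rose by 1.39 ± 0.11, adjusted p = 3.05e-05 (2.19, 2.45 and 3.02 FPKM at 0 h and 8.28, 7.85 and 8.62 at 1 h). The insulin receptor gene *Insr* had 29.5, 30.1 and 33.9 FPKM at 0 h and 68.02, 51.9 and 69.3 at 1 h (0.99 ± 0.12, adjusted p = 6.45e-04). *Igf1r*, the receptor of insulin-like growth factor, rose less, by 0.45 ± 0.08 (adjusted p = 0.0046). *Fgfr2*, a fibroblast growth factor receptor, rose by 0.62 ± 0.13 (adjusted p = 0.011). All 3 libraries at 1 h lay above all 3 at 0 h in these 5 genes.

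Kinases that act on lipids were also among the larger rises. *Pi4k2b*, which makes phosphatidylinositol 4-phosphate on membranes, had 10.004, 11.1 and 11.7 FPKM at 0 h and 34.3, 29.2 and 41.1 at 1 h (1.57 ± 0.13, adjusted p = 4.59e-05). *Pik3cd*, the delta catalytic subunit of phosphoinositide 3-kinase, had 8.95, 8.01 and 8.92 FPKM at 0 h and 22.6, 18.3 and 28.7 at 1 h (1.31 ± 0.17, adjusted p = 7.17e-04). *Dgkk*, a diacylglycerol kinase, had 0.138, 0.129 and 0.117 FPKM at 0 h and 1.54, 1.55 and 2.29 at 1 h (1.30 ± 0.13, adjusted p = 1.64e-04), a low level at which the log2 change is understated. Being below 1 FPKM in every 0 h library, it passed the filter only through later libraries. *Sphk2*, a sphingosine kinase, was one of 2 lower in this list, with 13.7, 14.7 and 15.3 FPKM at 0 h and 10.7, 11.9 and 10.6 at 1 h (−0.37 ± 0.07, adjusted p = 0.0097), but its most abundant row alone was not called.

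Several other serine/threonine kinase genes rose by about 2-fold. *Mark4*, which phosphorylates microtubule-associated proteins, had 27.4, 26.7 and 25.2 FPKM at 0 h and 71.2, 51.4 and 80.7 at 1 h (1.30 ± 0.14, adjusted p = 2.88e-04). *Prkx*, a catalytic subunit related to that of protein kinase A, had 5, 6.32 and 5.69 FPKM at 0 h and 15.2, 12.2 and 16.9 at 1 h (1.24 ± 0.12, adjusted p = 1.60e-04). *Bmp2k*, a kinase of the endocytic adaptor family, had 18.6, 17.9 and 18.5 FPKM at 0 h and 40.5, 34.4 and 51.8 at 1 h (1.14 ± 0.13, adjusted p = 3.33e-04). Smaller rises were measured for *Mknk2* (0.98 ± 0.18), which phosphorylates the cap-binding factor eIF4E, for *Camkk2* (0.93 ± 0.13), the kinase upstream of AMPK, and for *Rps6ka2* (0.83 ± 0.10), a kinase downstream of ERK. *Sgk1*, a kinase related to AKT, varied at 0 h (91.5, 117 and 52.9 FPKM at 0 h and 195, 133.6 and 159 at 1 h); its rise of 0.95 ± 0.25, adjusted p = 0.03 was no longer called when replicate 1 at 0 h or replicate 1 or 3 at 1 h was left out (adjusted p = 0.059 to 0.11). Other kinase genes that rose were *Ripk2* by 0.93 ± 0.13, *Map3k1* by 0.77 ± 0.12, *Dyrk2* by 0.74 ± 0.10 and *Clk1* by 0.68 ± 0.11. A kinase inhibitor gene rose as well: *Camk2n2*, an inhibitor of calcium/calmodulin-dependent kinase II, had 1.2, 0.865 and 1.06 FPKM at 0 h and 27.5, 17.01 and 33.8 at 1 h (3.68 ± 0.22, adjusted p = 4.71e-06).

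**Figure D3:**
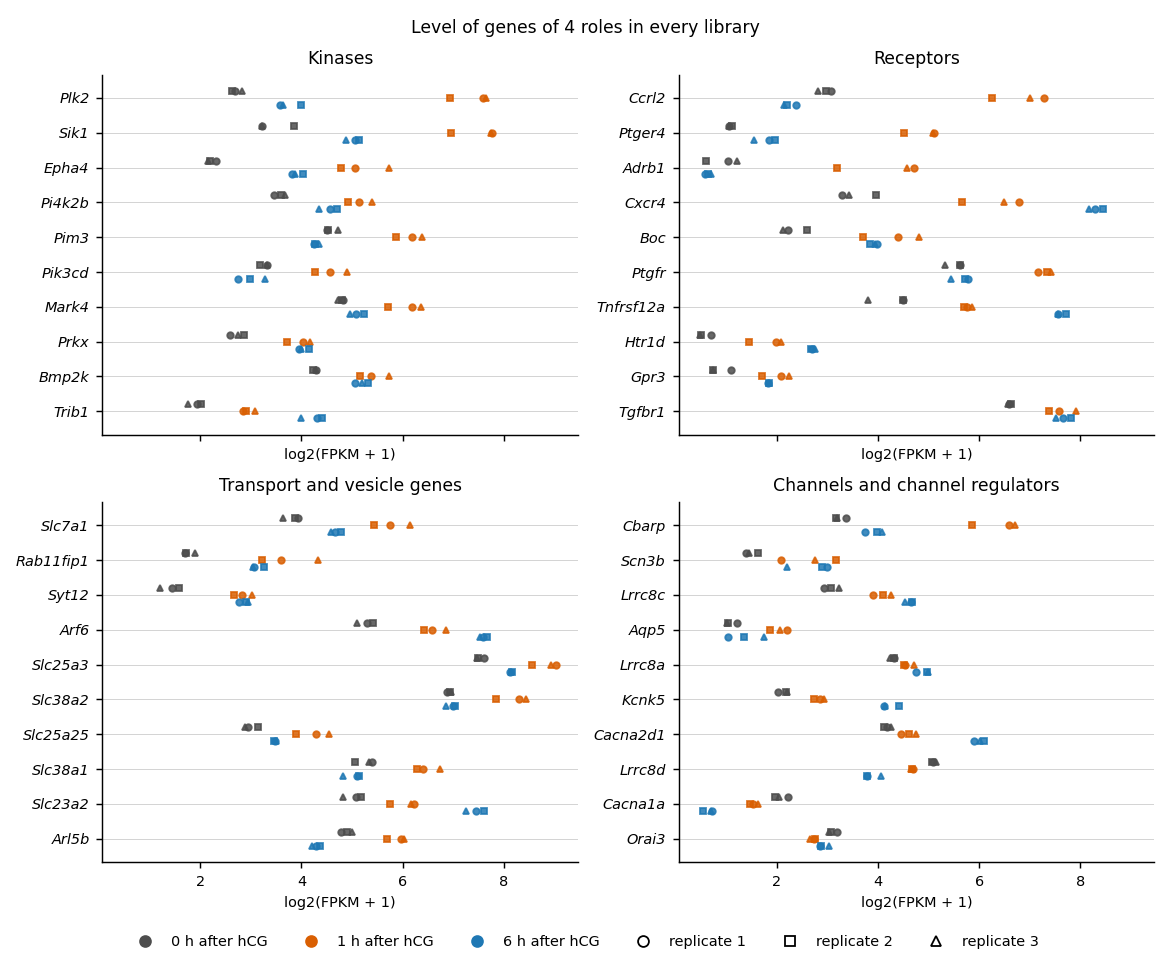
log2(FPKM + 1) of 10 genes each of 4 roles in all 9 libraries (grey 0 h, orange 1 h, blue 6 h; symbols mark replicate numbers). Most risers show the 1 h libraries to the right of the 0 h libraries, with *Plk2* between 121 and 198 FPKM at 1 h; *Lrrc8d*, *Cacna1a* and *Orai3* lie to the left.

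Receptor genes called higher were mostly G protein-coupled receptors. Over all receptor lists 564 genes were in the table and 260 were tested. Of these, 33 were called higher (12.7%, against 9.68% of all genes) and 8 lower (3.08%, against 5.98%). With a common sum the split was 24 higher and 31 lower, and after quantile normalization 32 and 16. Leaving out 1 library gave 21 to 35 higher and 5 to 13 lower: 21 without replicate 3 at 0 h or replicate 3 at 1 h, 22 without replicate 2 at 0 h or replicate 1 at 1 h, and for lower calls 5 without any library other than replicate 2 at 1 h. The 112 G protein-coupled receptor genes tested held 18 higher calls (16.1%, against 9.68% of all genes) and 4 lower (3.57%, against 5.98%), and 7 of the 18 rose by 2-fold or more. A common sum turned this to 14 higher and 16 lower, and leaving out 1 library gave 13 to 17 higher. Lower calls were 1 without replicate 1 at 0 h, 2 without replicate 2 or 3 at 0 h or replicate 3 at 1 h, and 6 without replicate 2 at 1 h.

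*Ccrl2* (ENSMUSG00000043953, chromosome 9, 111054486 to 111057519, minus strand), an atypical receptor that binds the chemoattractant chemerin, had 7.4, 6.89 and 6.05 FPKM at 0 h and 154, 75.6 and 127 at 1 h (3.89 ± 0.21, adjusted p = 3.15e-06). *Adrb1* (ENSMUSG00000035283, chromosome 19, 56722199 to 56733113, plus strand), the beta-1 adrenergic receptor, which like the LH receptor couples to the stimulatory G protein, had 1.06, 0.529 and 1.31 FPKM at 0 h and 25.4, 8.14 and 22.97 at 1 h (3.21 ± 0.35, adjusted p = 2.32e-04). Replicate 2 at 1 h was the lowest of its group for both, yet above every 0 h library. *Adrb1* was below 1 FPKM in replicate 2 at 0 h and in every 6 h library, so it passed the filter only with the 1 h group. *Cxcr4*, the receptor of the chemokine CXCL12, had 8.86, 14.6 and 9.78 FPKM at 0 h and 109, 49.5 and 89.1 at 1 h (2.75 ± 0.26, adjusted p = 1.14e-04). The 7 include a pair of prostaglandin receptors. *Ptger4*, a receptor of prostaglandin E2, had 1.08, 1.16 and 1.1 FPKM at 0 h and 33.3, 21.9 and 33.1 at 1 h (3.82 ± 0.17, adjusted p = 7.44e-07). *Ptgfr*, the receptor of prostaglandin F2-alpha, had 48.5, 48.1 and 39.2 FPKM at 0 h and 143, 162 and 171 at 1 h (1.79 ± 0.11, adjusted p = 8.29e-06). The rise of *Ptgfr* started from a higher level, and its 1 h libraries did not overlap those at 0 h.

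The remaining pair of the 7 were low-level genes. *Htr1d*, a serotonin receptor coupled to the inhibitory G protein, had 0.627, 0.423 and 0.405 FPKM at 0 h and 2.99, 1.75 and 3.25 at 1 h (1.28 ± 0.16, adjusted p = 6.98e-04). *Gpr3*, known from oocytes as a receptor that keeps cyclic AMP high without a ligand, had 1.14, 0.671 and 0.68 FPKM at 0 h and 3.24, 2.27 and 3.75 at 1 h (1.15 ± 0.16, adjusted p = 0.0012). The 13 oocyte markers tested had a median log2 change of 0.26 (−0.07 to 0.45) with 0 called and 2 at an unadjusted p below 0.05, and their part in this rise was not tested. Smaller rises were found for *F2r*, a thrombin receptor (0.82 ± 0.17), for *Ednra*, an endothelin receptor (0.73 ± 0.15), and for *Sstr1*, a somatostatin receptor (0.73 ± 0.15). *P2ry6*, a receptor of extracellular UDP, had 5.96, 4.67 and 4.4 FPKM at 0 h and 2.76, 2.5 and 2.87 at 1 h (−0.69 ± 0.14, adjusted p = 0.012), with no overlap, and fell. The fall of *Adra2a*, the alpha-2A adrenergic receptor, from 8.04 ± 1.48 to 4.94 ± 0.499 FPKM (SD, n = 3; −0.60 ± 0.15, adjusted p = 0.025) was no longer called when replicate 1 or 3 at 0 h or replicate 2 or 3 at 1 h was left out (adjusted p = 0.057 to 0.088).

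Single receptors of other classes rose too. *Boc*, a co-receptor of hedgehog ligands, had 3.65, 5.05 and 3.34 FPKM at 0 h and 20.1, 11.97 and 27.1 at 1 h (1.99 ± 0.24, adjusted p = 4.87e-04). *Gas1*, another hedgehog co-receptor, rose by 0.97 ± 0.17, adjusted p = 0.0042. *Tnfrsf12a*, the receptor of the cytokine TWEAK, had 21.6, 21.7 and 13.04 FPKM at 0 h and 53.3, 51.2 and 56.9 at 1 h (1.51 ± 0.16, adjusted p = 2.30e-04). *Tgfbr1*, a type I receptor of TGF-beta, had 95.6, 97.9 and 93.6 FPKM at 0 h and 189, 165 and 239 at 1 h (1.02 ± 0.12, adjusted p = 5.10e-04). The type II receptor genes *Bmpr2* and *Acvr2a* were not called (0.15 ± 0.10, adjusted p = 0.37 and 0.08 ± 0.09, adjusted p = 0.62). *Il1r1*, the signalling receptor of interleukin 1, rose by 0.62 ± 0.12, adjusted p = 0.0065.

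Of 33 nuclear receptor genes tested outside the NR4A family, 6 were called higher (18.2%, against 9.68% of all genes) and 3 lower (9.09%, against 5.98%). A common sum turned this to 3 and 10. The largest rise and the only one of 2-fold was that of *Pgr*, which belongs to the ovulation genes left aside (log2 change 3.98). Higher calls were 2 without replicate 1 or 3 at 0 h, 3 without replicate 2 at 0 h or replicate 2 or 3 at 1 h, and 4 without replicate 1 at 1 h, and lower calls 2 or 3. *Nr5a2*, which drives steroidogenic genes in granulosa cells, had 382, 402 and 452 FPKM at 0 h and 789, 606 and 852 at 1 h (0.85 ± 0.13, adjusted p = 0.0024). The retinoic acid receptor gene *Rara* fell, with 14.9, 13.3 and 15.6 FPKM at 0 h and 8.04, 10.2 and 9.11 at 1 h (−0.62 ± 0.11, adjusted p = 0.004). *Nr0b2*, a partner that represses NR5A2, also fell, with 3.19, 2.23 and 2.58 FPKM at 0 h and 1.49, 1.35 and 1.07 at 1 h (−0.67 ± 0.14, adjusted p = 0.01). The vitamin D receptor gene *Vdr* had 0.419, 0.274 and 0.143 FPKM at 0 h and 0.529, 2.41 and 1.69 at 1 h (0.92 ± 0.27, adjusted p = 0.047). This call ended when replicate 1, 2 or 3 at 0 h or replicate 2 or 3 at 1 h was left out (adjusted p = 0.082 to 0.14).

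Few channel genes were called. The table held 360; of those that passed the filter 9 were called higher (7.26%), 3 lower (2.42%) and 112 neither, with both shares below those of all genes; with a common sum 6 were higher and 9 lower, and after quantile normalization 8 and 4. The count of higher calls was 5 without replicate 1 at 0 h or replicate 3 at 1 h, and that of lower calls was 1 without replicate 1 at 1 h. The subunits of the volume-regulated anion channel moved in different directions. LRRC8A is the subunit every such channel needs, and it assembles with LRRC8B to LRRC8E, which set what the channel lets pass. *Lrrc8c* (ENSMUSG00000054720, chromosome 5, 105519388 to 105613018, plus strand) had 6.7, 7.4 and 8.37 FPKM at 0 h and 14.04, 16.2 and 18.1 at 1 h and rose by 1.01 ± 0.11, adjusted p = 2.04e-04. *Lrrc8d* had 32.8, 32.4 and 34.4 FPKM at 0 h and 24.9, 24.6 and 24.02 at 1 h and fell by 0.42 ± 0.08 (adjusted p = 0.0083), although its most abundant row alone was not called. *Lrrc8a* rose by 0.29 ± 0.09, adjusted p = 0.047, a call that ended when replicate 1, 2 or 3 at 0 h or replicate 1 or 3 at 1 h was left out (adjusted p = 0.084 to 0.15), and *Lrrc8b* (0.19 ± 0.10, adjusted p = 0.23) and *Lrrc8e* (−0.08 ± 0.13, adjusted p = 0.74) were not called. *Lrrc8d* was above *Lrrc8c* in each of the 6 libraries on the FPKM scale, and the distance between them was smaller at 1 h.

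*Kcnk5*, a potassium channel gene of the 2-pore class, rose from a low level, and its libraries had 3.09, 3.57 and 3.59 FPKM at 0 h and 6.24, 5.67 and 6.62 at 1 h (0.70 ± 0.11, adjusted p = 0.0022). *Scn3b*, a beta subunit of sodium channels, rose by 1.18 ± 0.27, adjusted p = 0.018 but was not called when replicate 1 or 3 at 0 h or replicate 3 at 1 h was left out (adjusted p = 0.057 to 0.067). The water channel gene *Aqp5* had 1.33, 1.05 and 1.02 FPKM at 0 h and 3.58, 2.64 and 3.19 at 1 h (0.95 ± 0.18, adjusted p = 0.0069), and its most abundant row alone was not called.

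Voltage-gated calcium channel genes and their regulators were read together. The pore gene *Cacna1a* had 3.66, 2.91 and 3.14 FPKM at 0 h and 1.9, 1.77 and 2.09 at 1 h (−0.53 ± 0.12, adjusted p = 0.015). This fall was no longer called when replicate 1 at 0 h or replicate 1 at 1 h was left out (adjusted p = 0.051 to 0.062). The accessory gene *Cacna2d1* rose by 0.43 ± 0.09, adjusted p = 0.011. *Cbarp* (ENSMUSG00000035640, chromosome 10, 80130451 to 80140835, minus strand), which encodes an inhibitory partner of calcium channel beta subunits, had 9.39, 7.98 and 8.17 FPKM at 0 h and 95.1, 57.3 and 103 at 1 h (3.14 ± 0.19, adjusted p = 6.77e-06). *Gem* and *Rrad* encode small GTPases of the RGK class, which also bind those beta subunits and lower calcium current. *Gem* had 12.4, 12.8 and 23.3 FPKM at 0 h and 55.1, 50.02 and 53.005 at 1 h (1.70 ± 0.19, adjusted p = 3.34e-04). *Rrad* had 3.6, 5.4 and 2.83 FPKM at 0 h and 11.98, 8.32 and 11.5 at 1 h (1.25 ± 0.19, adjusted p = 0.0019). In these 3 regulator genes all libraries at 1 h were above all at 0 h, and the calls held without any 1 library. *Orai3*, a store-operated calcium channel gene, fell by 0.39 ± 0.09 (adjusted p = 0.018), a call that ended when replicate 1 at 0 h or replicate 1 or 3 at 1 h was left out (adjusted p = 0.051 to 0.069).

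**Figure D4:**
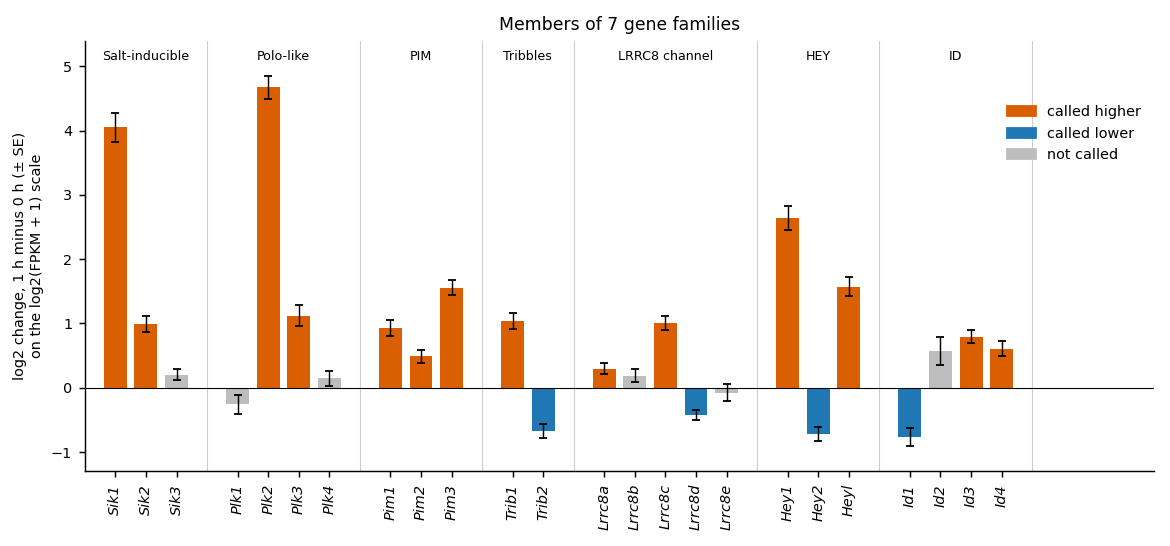
log2 change from 0 h to 1 h with its SE for the tested members of 7 gene families, on the log2(FPKM + 1) scale (n = 3 libraries a time; orange called higher, blue called lower, grey not called). Single members lead the SIK and polo-like families (*Sik1* 4.05, *Plk2* 4.67). The polo-like, Tribbles, LRRC8, HEY and ID families have members on both sides of 0.

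Transport genes as a whole were called higher at close to the share of all genes. The table held 866, of which 577 were tested; 61 were called higher (10.6%) and 20 lower (3.47%); with a common sum 36 were higher and 92 lower, and after quantile normalization 42 and 37. The count of higher calls was 34 without replicate 1 at 1 h, 36 without replicate 3 at 1 h and 39 to 41 without 1 of the 0 h libraries; lower calls were 6 to 8 without any library other than replicate 2 at 1 h. Among 214 solute carriers tested 21 were higher (9.81%, close to the 9.68% of all genes) and 8 lower (3.74%), and 7 rose by 2-fold or more. A common sum turned this to 17 higher and 40 lower, and quantile normalization gave 18 and 15. Higher calls were 15 to 25 on leaving out 1 library. Lower calls were 2 without replicate 1 at 0 h, 3 without replicate 2 at 0 h or replicate 1 or 3 at 1 h, 5 without replicate 3 at 0 h and 14 without replicate 2 at 1 h.

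Several amino acid carrier genes rose. *Slc7a1* (ENSMUSG00000041313, chromosome 5, 148327410 to 148399904, minus strand), the carrier of arginine and lysine, had 14.3, 13.7 and 11.4 FPKM at 0 h and 52.6, 41.9 and 69.5 at 1 h (1.95 ± 0.16, adjusted p = 4.44e-05). *Slc38a2* and *Slc38a1* encode sodium-coupled carriers of small neutral amino acids. The first had 117, 120.4 and 123.3 FPKM at 0 h and 315, 229 and 347 at 1 h (1.28 ± 0.13, adjusted p = 1.80e-04). The other had 41.04, 32.4 and 39.2 FPKM at 0 h and 83.3, 76.4 and 105 at 1 h (1.21 ± 0.14, adjusted p = 3.20e-04). *Slc7a8*, a carrier of larger neutral amino acids, rose by 0.97 ± 0.15, adjusted p = 0.002. All 4 genes had 1 h libraries above every 0 h library. *Slc3a2*, the heavy chain that brings SLC7 carriers to the membrane, was higher by only 0.30 ± 0.08, and its call ended when replicate 1, 2 or 3 at 0 h or replicate 1 or 3 at 1 h was left out (adjusted p = 0.061 to 0.11). The cystine carrier gene *Slc7a11* was low, with 0.948, 0.599 and 0.574 FPKM at 0 h and 2.84, 1.94 and 2.67 at 1 h (1.03 ± 0.22, adjusted p = 0.013). It was not called when replicate 1 or 3 at 1 h was left out (adjusted p = 0.0502 to 0.051). Opposite to these, *Slc36a1*, a lysosomal and plasma membrane amino acid carrier, fell by 0.40 ± 0.08 (adjusted p = 0.0098).

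*Slc25a3* (ENSMUSG00000061904, chromosome 10, 91116574 to 91124059, minus strand), the mitochondrial phosphate carrier, was the most abundant of the carriers named here, with 193, 179 and 176 FPKM at 0 h and 523, 375 and 489 at 1 h (1.32 ± 0.11, adjusted p = 4.85e-05). *Slc25a25*, a calcium-regulated mitochondrial carrier of ATP-Mg and phosphate, had 6.66, 7.78 and 6.38 FPKM at 0 h and 18.6, 13.8 and 22.4 at 1 h (1.26 ± 0.15, adjusted p = 4.39e-04). *Slc20a1* and *Slc20a2*, sodium-phosphate carriers of the plasma membrane, rose by 0.79 ± 0.10 and 0.82 ± 0.14 (adjusted p = 6.25e-04 and 0.0042). The vitamin C carrier gene *Slc23a2* had 32.7, 35.05 and 27.4 FPKM at 0 h and 73.9, 52.997 and 70.5 at 1 h (1.02 ± 0.14, adjusted p = 0.0012). The carnitine carrier gene *Slc22a5* rose by 0.87 ± 0.14, adjusted p = 0.0028. Other transporter genes were lower at 1 h. *Slc16a4*, of the monocarboxylate carrier family, had 2.9, 2.72 and 2.72 FPKM at 0 h and 1.64, 1.68 and 1.29 at 1 h (−0.58 ± 0.11, adjusted p = 0.0067). *Abcd2*, a peroxisomal ABC transporter of fatty acids, had 9.23, 9.85 and 11.3 FPKM at 0 h and 6.12, 7.14 and 6.46 at 1 h (−0.55 ± 0.10, adjusted p = 0.0048). *Slc26a1*, a sulfate carrier, had the lowest change of the list (−0.83 ± 0.20, adjusted p = 0.02), which was no longer called when replicate 1 or 3 at 0 h or replicate 1 or 3 at 1 h was left out (adjusted p = 0.055 to 0.077).

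Among 80 RAB, ARF and ARL traffic GTPase genes tested, 11 were called higher (13.75%, against 9.68% of all genes) and 5 lower (6.25%, against 5.98%). Leaving out 1 library gave 6 to 10 higher and 1 to 7 lower, and a common sum 5 and 16. SNARE and exocytosis genes (62 tested) held 8 higher calls (12.9%) and 3 lower (4.84%). For these, leaving out 1 library gave 5 to 8 higher and 0 to 3 lower, and a common sum 6 and 11. *Arf6*, a GTPase of endocytosis and membrane recycling, had 38.4, 41.3 and 33.4 FPKM at 0 h and 94.003, 84.1 and 115 at 1 h (1.34 ± 0.12, adjusted p = 5.98e-05). *Arl5b*, a GTPase of the Golgi whose promoter is shown above, had 26.6, 29.01 and 30.8 FPKM at 0 h and 61.5, 50.9 and 63.9 at 1 h (1.00 ± 0.10, adjusted p = 1.19e-04). *Rab11fip1*, an effector of RAB11 on recycling endosomes, had 2.26, 2.31 and 2.73 FPKM at 0 h and 11.1, 8.35 and 19.1 at 1 h (1.94 ± 0.23, adjusted p = 4.37e-04). *Rab33a*, a GTPase of the Golgi and of exocytic vesicles, fell, with 16.4, 17.1 and 13.5 FPKM at 0 h and 8.35, 9.25 and 9.23 at 1 h (−0.74 ± 0.11, adjusted p = 0.0016). These genes were named by a rule that asks for groups that do not overlap. *Syt12*, of the synaptotagmin family, had 1.73, 2.01 and 1.3 FPKM at 0 h and 6.05, 5.32 and 7.1 at 1 h (1.42 ± 0.13, adjusted p = 1.01e-04). In the kinesin-1 motor the heavy chain gene *Kif5b* rose (0.62 ± 0.08, adjusted p = 8.30e-04) and the light chain gene *Klc2* fell (94.1, 88.3 and 95.4 FPKM at 0 h and 64.9, 63.98 and 73.7 at 1 h; −0.45 ± 0.08, adjusted p = 0.0065). *Klc1*, another light chain gene, was higher by 0.31 ± 0.07, and that call ended when replicate 1 or 3 at 0 h or replicate 1 or 3 at 1 h was left out (adjusted p = 0.054 to 0.083). Of 63 nuclear pore and nuclear transport genes 5 were called higher (7.94%, against 9.68% of all genes) and 0 lower, and a common sum turned this to 3 and 7. Higher calls were 3 without replicate 1 at 0 h, 2 without replicate 2 or 3 at 0 h or replicate 1 or 3 at 1 h, and 7 without replicate 2 at 1 h. Among the 5 were *Nup98* (0.62 ± 0.09) and *Ranbp2* (0.47 ± 0.07).

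Of 47 pumping ATPases tested, 9 were called higher (19.1%, against 9.68% of all genes) and 0 lower (against 5.98%). The count of higher calls fell to 1 without replicate 1 at 1 h, to 2 without replicate 3 at 1 h and to 3 without any 1 of the 0 h libraries. With a common sum 2 were higher and 5 lower, and after quantile normalization 3 and 4. Their median log2 change was 0.11, −0.04 with a common sum and 0.02 after quantile normalization, against −0.00, −0.14 and −0.05 for all genes. Among the 5 called genes of the vacuolar proton pump, only *Atp6v1h* (0.45 ± 0.09, adjusted p = 0.0098) was called without any 1 library.

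Genes that modify signals in the cell formed the next group. Small GTPases, their regulators, phosphatases and ligands gave 427 tested genes. Of these, 76 were called higher (17.8%, against 9.68% of all genes) and 10 lower (2.34%, against 5.98%), with 25 rises of 2-fold or more. A common sum gave 56 higher and 36 lower, quantile normalization 65 and 16, and leaving out replicate 3 or replicate 1 at 1 h 50 or 51 higher. Lower calls were 2 to 6 without any library other than replicate 2 at 1 h, and 16 without that one. Phosphodiesterases that degrade cyclic AMP were in no list but among the 15 highest changes of well-named genes. *Pde4d* had 2.26, 3.83 and 2.45 FPKM at 0 h and 35.3, 23.2 and 42.2 at 1 h (3.15 ± 0.21, adjusted p = 1.16e-05). *Pde10a* had 4.43, 3.84 and 3.17 FPKM at 0 h and 63.8, 34.2 and 79.95 at 1 h (3.57 ± 0.27, adjusted p = 2.70e-05). *Rasd1*, a dexamethasone-inducible RAS-related GTPase, was the most abundant of the GTPase genes that rose by 2-fold, with 114, 96.8 and 83.98 FPKM at 0 h and 401, 186 and 315 at 1 h (1.55 ± 0.28, adjusted p = 0.006). *Rnd3*, an atypical small GTPase of the cytoskeleton, rose by 1.29 ± 0.10, adjusted p = 4.09e-05. Higher too were *Arhgap21* (1.54 ± 0.16, adjusted p = 1.87e-04), a GTPase-activating protein, and *Arhgef2* (1.24 ± 0.10, adjusted p = 4.85e-05), a guanine nucleotide exchange factor. The phosphatase gene *Ptp4a1* had 51.2, 53.01 and 54.8 FPKM at 0 h and 217, 184 and 235 at 1 h (1.97 ± 0.11, adjusted p = 3.11e-06). Its relative *Ptp4a2* rose by 0.62 ± 0.09, adjusted p = 0.0015.

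Secreted and membrane-bound ligands outside the EGF family held 13 of these 25 rises. Of 143 tested, 24 were called higher (16.8%, against 9.68% of all genes) and 2 lower (1.40%, against 5.98%). There were 14 higher without replicate 1 or replicate 3 at 1 h and 16 without replicate 3 at 0 h. A common sum gave 20 higher and 9 lower. *Tnfsf11* (ENSMUSG00000022015, chromosome 14, 78277445 to 78308043, minus strand), which encodes RANKL, had 1.11, 1.25 and 1.04 FPKM at 0 h and 20.1, 19.6 and 21.4 at 1 h (3.33 ± 0.12, adjusted p = 2.76e-07), with the 3 libraries of a time close together. *Kitl*, the ligand by which granulosa cells reach the KIT receptor of the oocyte, had 27.4, 26.6 and 26.4 FPKM at 0 h and 83.5, 84.7 and 82.6 at 1 h (1.61 ± 0.17, adjusted p = 1.97e-04). *Gdnf*, a growth factor of the TGF-beta superfamily, had 18.6, 17.6 and 17.1 FPKM at 0 h and 71.2, 46.3 and 89.1 at 1 h (1.85 ± 0.19, adjusted p = 2.00e-04). *Il7*, the cytokine interleukin 7, had 1.47, 1.43 and 0.792 FPKM at 0 h and 5.29, 5.26 and 7.73 at 1 h (1.67 ± 0.17, adjusted p = 1.72e-04). *Edn1*, an endothelin precursor, had 0.256, 0.35 and 0.912 FPKM at 0 h and 2.71, 3.3 and 2.95 at 1 h (1.43 ± 0.17, adjusted p = 4.21e-04). *Wnt11*, a ligand of the Wnt family, had 0.0785, 0.0746 and 0.0476 FPKM at 0 h and 1.28, 2.68 and 3.13 at 1 h (1.61 ± 0.21, adjusted p = 7.49e-04). Being below 1 FPKM in every 0 h library, *Edn1* and *Wnt11* passed the filter only through later libraries. None of these 6 genes had overlapping groups. *Angptl4*, which inhibits lipoprotein lipase, fell, with 19.4, 19.9 and 19.7 FPKM at 0 h and 11.5, 15.01 and 12.5 at 1 h (−0.57 ± 0.11, adjusted p = 0.0084).

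A mixed list of transcription factors and co-regulators joined homeobox, forkhead, SOX, GATA, ETS, SMAD, IRF, STAT, NF-kappaB, CREB, basic helix-loop-helix and other classes. Of its genes, 157 were tested. Among them 35 were called higher (22.3%, against 9.68% of all genes) and 10 lower (6.37%, against 5.98%). A common sum gave 28 and 24, quantile normalization 28 and 12. Without replicate 1 or 3 at 1 h there were 24 higher, and lower calls were 4 without replicate 3 at 1 h and 6 without replicate 1 at 1 h or any 0 h library. Within this list the HEY genes, targets of Notch signalling that repress transcription, split. *Hey1* (ENSMUSG00000040289, chromosome 3, 8663359 to 8667256, minus strand) had 0.657, 0.908 and 0.71 FPKM at 0 h and 9.14, 8.07 and 13.2 at 1 h (2.64 ± 0.19, adjusted p = 1.64e-05). *Heyl* had 7.65, 8.61 and 9.11 FPKM at 0 h and 25.5, 22.9 and 33.9 at 1 h (1.57 ± 0.15, adjusted p = 1.20e-04). *Hey2* fell, with 39.997, 36.1 and 47.2 FPKM at 0 h and 23.02, 27.1 and 23.3 at 1 h (−0.72 ± 0.10, adjusted p = 0.0015). *Hes1*, a repressor of the same class, rose by 0.92 ± 0.12, adjusted p = 6.47e-04. The ID genes, inhibitors of basic helix-loop-helix factors, split as well. *Id1* fell, with 43.5, 41.3 and 40.8 FPKM at 0 h and 23.2, 31.1 and 19.4 at 1 h (−0.77 ± 0.14, adjusted p = 0.0052). *Id3* rose, with 102, 107 and 110.1 FPKM at 0 h and 188, 155 and 216 at 1 h (0.79 ± 0.10, adjusted p = 7.89e-04). *Id4* rose at a low level (0.61 ± 0.12, adjusted p = 0.0084) and *Id2* was not called (0.57 ± 0.22, adjusted p = 0.11). The directions and calls of these 7 called genes were the same under each alternative tried, both scalings included. *Gata6*, a factor of granulosa cell differentiation, fell as well, with 58.3, 51.04 and 53.6 FPKM at 0 h and 32.6, 38.9 and 34.8 at 1 h (−0.60 ± 0.08, adjusted p = 8.63e-04). The transcription co-regulator gene *Cited2* rose by 1.18 ± 0.11, adjusted p = 9.53e-05.

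Among the 15 highest changes of well-named genes, 5 were in no list and are not described above. *Egln3*, an oxygen-dependent prolyl hydroxylase that acts on HIF, had 0.937, 0.655 and 0.67 FPKM at 0 h and 22.7, 17.6 and 27.8 at 1 h (3.74 ± 0.15, adjusted p = 3.83e-07). *Ell2*, a factor of transcription elongation, had 5.84, 6.15 and 7.08 FPKM at 0 h and 102, 67.2 and 115 at 1 h (3.67 ± 0.19, adjusted p = 1.73e-06). *Srxn1*, which restores oxidised peroxiredoxins, had 3.67, 4.45 and 3.38 FPKM at 0 h and 46.3, 58.1 and 78.3 at 1 h (3.65 ± 0.17, adjusted p = 1.16e-06). The clock repressor gene *Cry2* had 14.4, 14.05 and 13.1 FPKM at 0 h and 179, 124.1 and 215 at 1 h (3.51 ± 0.17, adjusted p = 1.38e-06). *Osgin2* had 14.5, 21.5 and 18.4 FPKM at 0 h and 177, 112 and 225 at 1 h (3.13 ± 0.23, adjusted p = 1.93e-05). *Ciart*, another repressor of the clock, was lower, with 10.1, 10.4 and 11.6 FPKM at 0 h and 4.72, 4.74 and 6.53 at 1 h (−0.89 ± 0.16, adjusted p = 0.0045). Of these 6 genes *Ciart* alone lost its call under an alternative, when its most abundant row was read by itself.

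Falls within the first hour were small. The median log2 change of the 869 genes called lower was −0.51, a fold of 1.43. Of these genes 208 were called lower whichever library was left out, 128 under each of the 15 alternatives, and 553 from their most abundant row alone. For the 1407 genes called higher the numbers were 821, 660 and 1151. In these counts a gene not tested in a setting counts as not called, so they mix lost calls with untested genes. A mean of 5 FPKM or more at 0 h was reached by 571 of the 869, and 1 alternative filters at 5 FPKM. Of the 17 genes that fell by 2-fold or more, 11 had predicted, clone-type or assembled names. The other 6 were *Atf7ip*, *Tmprss13*, *Defb23*, *Ms4a10*, *Omp* and *Snhg3*, and only *Tmprss13* and *Omp* were called whichever library was left out.

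*Tmprss13* (ENSMUSG00000037129, chromosome 9, 45319100 to 45347581, plus strand), a membrane-anchored serine protease, had 11.6, 11.4 and 14.8 FPKM at 0 h and 4.13, 6.95 and 4.46 at 1 h (−1.16 ± 0.17, adjusted p = 0.0017). It has a single row in the table, so the value does not depend on how rows were summed. *Atf7ip*, a partner of the methyltransferase SETDB1, had the lowest change of the named genes (133, 173 and 52.1 FPKM at 0 h and 40.5, 37.3 and 31.2 at 1 h; −1.53 ± 0.35, adjusted p = 0.016). The 0 h libraries varied, and 85.7% of the fall lay in 1 of its 8 rows, with 84.3, 129 and 0 FPKM at 0 h and 0 in every 1 h library. Its call ended when replicate 1 at 0 h or replicate 3 at 1 h was left out (adjusted p = 0.06 to 0.064). *Omp*, the olfactory marker protein gene, had 2.42, 2.23 and 3.34 FPKM at 0 h and 0.615, 0.94 and 0.619 at 1 h (−1.08 ± 0.17, adjusted p = 0.0023), a low level at either time.

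Regulators of cytokine signalling were among the 20 lowest changes of well-named genes. *Socs1*, which shuts off JAK kinases, had 8.13, 11.1 and 12.1 FPKM at 0 h and 3.91, 6.34 and 5.49 at 1 h (−0.88 ± 0.17, adjusted p = 0.0084). *Pias3*, an inhibitor of STAT3 and a SUMO ligase, had 22.8, 24.3 and 26.4 FPKM at 0 h and 10.7, 17.5 and 11.2 at 1 h (−0.88 ± 0.15, adjusted p = 0.0044). Both were called whichever library was left out and from the most abundant row alone. *Phf13*, a PHD finger protein that binds trimethylated histone tails, had 39.2, 37.5 and 43.3 FPKM at 0 h and 21.1, 25.8 and 21.3 at 1 h (−0.79 ± 0.10, adjusted p = 5.41e-04). *Rnf219*, a RING finger gene, had 12.8, 11.7 and 12.9 FPKM at 0 h and 5.51, 7.56 and 6.62 at 1 h (−0.84 ± 0.11, adjusted p = 6.47e-04), with 1 row and no overlap. Also lower under each alternative were *Smim10l2a* (−0.78 ± 0.09), *Fndc9* (−0.87 ± 0.17), *Fam84b* (−0.85 ± 0.14), *Thumpd2* (−0.82 ± 0.17), *Scnm1* (−0.78 ± 0.14) and *BB365896* (−0.81 ± 0.16).

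Zinc finger genes of the ZFP and KRAB type, mostly repressors in the nucleus, had the highest share of falls among the lists. The table held 425, of which 382 were tested. Among them 14 were called higher (3.66%, against 9.68% of all genes) and 90 lower (23.6%, against 5.98%). The median log2 change of the list was −0.25 against −0.00 for all genes. A common sum gave 13 higher and 187 lower, and quantile normalization 15 and 97. The count of lower calls moved with the libraries: it was 139 without replicate 2 at 1 h, 29 without replicate 3 and 32 without replicate 1 at 1 h, and 50, 44 and 35 without replicates 1, 2 and 3 at 0 h. *Repin1* had 39.02, 41.98 and 42.9 FPKM at 0 h and 17.4, 31.04 and 19.4 at 1 h (−0.88 ± 0.17, adjusted p = 0.0079) but was not called from its most abundant row. *Zfp41* had 18.1, 19.4 and 20.9 FPKM at 0 h and 8.52, 13.3 and 8.14 at 1 h (−0.93 ± 0.20, adjusted p = 0.012). Its call ended when replicate 1 or 3 at 1 h was left out (adjusted p = 0.0504 to 0.054). In the opposite direction *Zfp703*, a co-repressor, had 10.5, 11.9 and 10.7 FPKM at 0 h and 56.4, 48.5 and 70.9 at 1 h (2.29 ± 0.13, adjusted p = 3.17e-06). *Zfp52* had 13.5, 15.3 and 13.4 FPKM at 0 h and 44.98, 32.2 and 40.2 at 1 h (1.40 ± 0.11, adjusted p = 4.24e-05).

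Of 63 replication-dependent histone genes tested 1 was higher and 4 were lower (6.35%, close to the 5.98% of all genes). With a common sum 17 were lower, beside 2634 of all 14553 genes tested. After quantile normalization 18 were lower, beside 1252 of all 14535. Higher calls of histone genes were 0 without replicate 3 at 0 h or replicate 1 or 3 at 1 h. Lower calls were 2 without replicate 1 or 3 at 0 h or replicate 1 at 1 h, and 6 without replicate 3 at 1 h. *Hist1h2an* had 288, 202 and 238 FPKM at 0 h and 119.7, 115 and 133 at 1 h (−0.97 ± 0.21, adjusted p = 0.013), a fall called whichever library was left out. *Hist2h2bb* had 528, 538 and 452 FPKM at 0 h and 345, 329 and 404 at 1 h (−0.49 ± 0.10, adjusted p = 0.012). Histone genes have near-identical copies, and reads may have been divided among them.

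**Figure D5:**
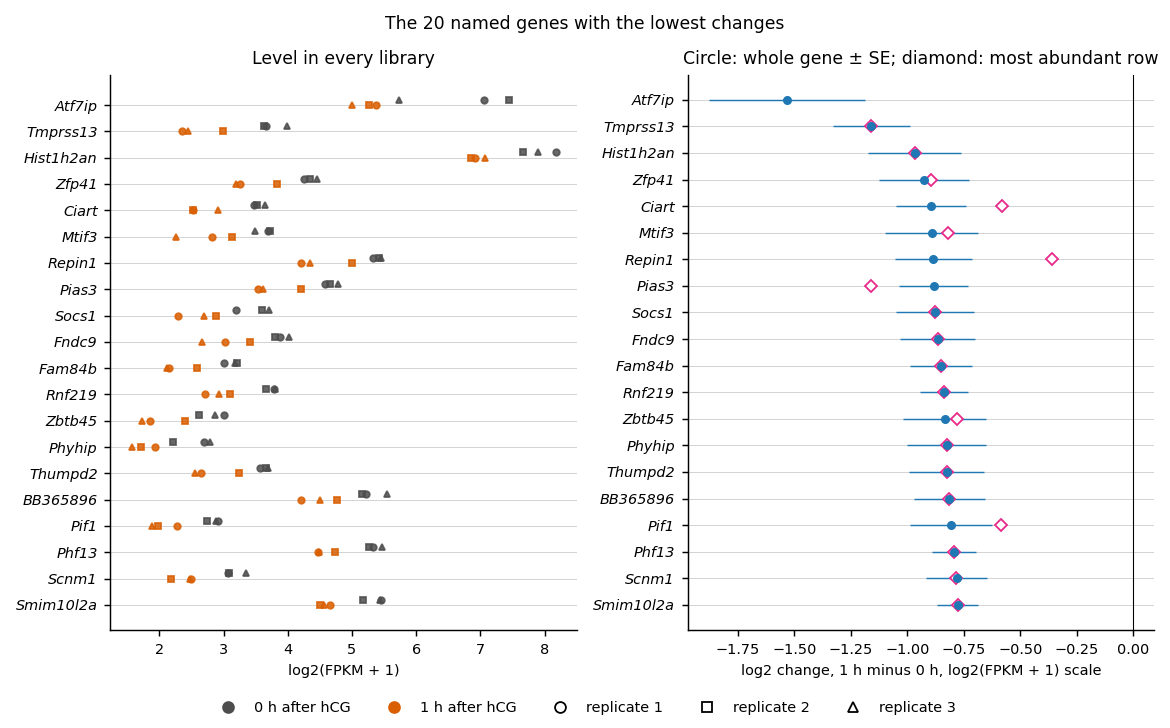
The 20 named genes with the lowest changes. Left: log2(FPKM + 1) in each library at 0 h (grey) and 1 h (orange). Right: log2 change with SE of the whole gene (circles) and of its most abundant row (diamonds; none for *Atf7ip*, whose most abundant row was not tested); the row's fall is smaller than the gene's in *Repin1* and *Ciart* and larger in *Pias3*.

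Levels at 6 h are given as a description of the later course of some of these genes, without a test. *Ccrl2* was at 4.21, 3.59 and 3.41 FPKM at 6 h and *Tnfsf11* at 0.977, 1.03 and 0.603, both below every 0 h library. *Adrb1* was at 0.505, 0.565 and 0.629 FPKM, within or below its 0 h range. *Plk2* was at 10.999, 14.8 and 11.3 FPKM and *Sik1* at 32.1, 34.1 and 28.4, above every 0 h library and below every 1 h library. *Cxcr4*, at 312, 349 and 287 FPKM, and *Lrrc8c*, at 24.2, 24.5 and 22.2, were above every 1 h library. *Kitl*, at 6.74, 12.7 and 10.9 FPKM, and *Nr5a2*, at 179, 144 and 162, had been higher at 1 h and were below every 0 h library. Among the falls, *Tmprss13* was lower still at 0.675, 0.516 and 0.564 FPKM, and so was *Trib2* at 42.1, 32.8 and 36.8. *Pias3* was at 20.6, 20.1 and 20.5 FPKM, above every 1 h library and below every 0 h library.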

How the data were processed

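RNA of granulosa cells was sequenced in 9 libraries, 3 at each of 0, 1 and 6 h after hCG. FPKM values were computed by the authors and deposited as 1 table per library with 54759 transcript rows. HISAT2 2.0.5 and the mm10 build are named per the submitters' processing notes, while the labels and headers name neither the FPKM program nor a strand setting. Rows were summed per gene identifier (25059, of which 11778 had more than 1 row), so reads of overlapping, antisense or near-identical genes may be divided arbitrarily. Positions come from GENCODE M21 (mm10), which held 24030 of 24275 Ensembl identifiers. Sequencing depth is unknown: values between 0 and 0.001 FPKM showed no whole-read steps, so no counting interval is given, and a 0 means only that a row is listed at 0.

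Genes with 1 FPKM or more in 3 or more of the 9 libraries were tested on log2(FPKM + 1) with limma 3.58.1 (R 4.3.3). The model held all 9 libraries with 3 group means, a mean-variance trend and 6 residual degrees of freedom. Tests were two-sided with Benjamini-Hochberg adjustment, called below 0.05. Genes below 1 FPKM in every 0 h library, among them *Wnt11*, *Edn1*, *Dgkk*, *Egln3*, *Hey1*, *Htr1d*, *Slc7a11* and *Vdr*, passed the filter through later libraries. *Omp* passed it without the 1 h group and *Adrb1* only with that group. The code was tested on simulated data with changed genes placed at random. Members and gene lists were chosen with earlier results of these data known. A rule named 147 genes: per list the called genes with the highest and lowest changes and non-overlapping groups, plus the 15 highest and 20 lowest changes of genes at 5 FPKM or more with established names. Another 83, mainly family members and further examples within a list, were chosen after their values were seen, among them *Sik2*, *Sik3*, *Plk1*, *Plk4*, *Pim1*, *Pim2*, *Trib1*, *Efnb2*, *Igf1r*, *Dgkk*, *Mknk2*, *Camkk2*, *Cxcr4*, *Ptgfr*, *Htr1d*, *Gpr3*, *F2r*, *Ednra*, *Sstr1*, *Bmpr2*, *Acvr2a*, *Vdr*, *Lrrc8b*, *Lrrc8e*, *Rrad*, *Slc38a1*, *Slc7a8*, *Slc3a2*, *Slc7a11*, *Slc36a1*, *Slc25a25*, *Slc20a1*, *Slc20a2*, *Slc23a2*, *Slc22a5*, *Klc1*, *Rnd3*, *Ptp4a2*, *Kitl*, *Gdnf*, *Il7*, *Edn1*, *Wnt11*, *Hes1*, *Id3*, *Id4*, *Id2*, *Gata6*, *Cited2*, *Defb23*, *Ms4a10*, *Omp* and *Snhg3*. Lists taken by symbol pattern exclude antisense names, and *Bmp2k* counts as a kinase only. Symbols of 27 genes were stored as dates, and a name was sought for each by its gene identifier. Alternatives varied the pseudocount, filter, scaling, row choice, libraries and replicate block. Statements on a single gene under each alternative cover only those in which it was tested. Same-numbered libraries at 0 h and 1 h had deviations correlated at r = 0.109, 0.038 and 0.043 over genes, and no label ties the numbers together.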

Additional observations from a re-analysis of the deposited data

How the results depend on the processing

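Genes called lower numbered 2634 with FPKM scaled to a common sum, against 869 as reported. Without the 6 h libraries, 602 of 13942 genes tested were called lower and 1166 higher. Falls of 2-fold or more (17) became 121 at a pseudocount of 0.1 FPKM, 62 at 0.5 FPKM, 8 with a filter of 5 FPKM and 51 with scaled FPKM; a smaller pseudocount enlarges changes of low genes by construction. Leaving out 1 library gave 904 to 1601 genes higher, 295 to 1223 lower and 14 to 76 lower by 2-fold or more, each highest count without replicate 2 at 1 h. With the replicate block, a paired reading of numbers that share only a number, 1306 genes were higher, 685 lower, and 377 and 18 by 2-fold or more. By correlation of deviations, replicate 3 at 0 h was closest to replicate 2 at 1 h (r = 0.086), not to its own number. Replicate 2 at 0 h was closest to replicate 1 at 1 h (r = 0.057), and replicate 1 at 0 h to its own number (r = 0.109). Of 147 genes named by the rule 88 kept their call in all 15 alternatives, 64 higher and 24 lower, and none of the called genes named reversed. Values without a library rest on 2 in that group and on the spread pooled over the others. The number of libraries and the unknown depth limit what small changes at low FPKM can show.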
